A study of Mus musculus with 6 samples.

Results

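The 10 genes described here are the transcription factor genes Stat5a, Stat5b and Stat3, the SOCS family inhibitors Cish, Socs1, Socs2 and Socs3, the kinase genes Pim1 and Pim2, and the cytokine gene Osm. They were chosen by symbol and each was found in both deposited tables, which list 21881 genes apiece. The cells are mouse leukemia cells of the strain labelled C57/B6X129SV, driven by AE9a, a truncated AML1-ETO fusion protein. In all groups, controls included, the cells carry loxP-flanked Id1 alleles together with CreER, a Cre recombinase that 4-hydroxytamoxifen (4-OHT) switches on. RNA-seq was done on 6 samples in 3 groups of 2: control cells with no agent named, cells given CBD (called an inhibitor of Id1 by the submitters) at 15 µM for 16 h, and cells given 4-OHT at 0.1 µM for 48 h. No group received 4-OHT without loxP sites, and no source says whether a group's samples came from separate cultures, so the authors' p-values may measure technical spread.

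Each table gives 1 FPKM value per group (fragments per kilobase of transcript, scaled to library depth), so a gene has 4 values: CBD and its control, and 4-OHT and a different control column. The sample descriptions tie 1 control sample to each table, so a control column may be a single library, and the deposited q values would then rest on 1 control sample each. No SD or n can be set beside any of these values, because a group has a single value in a table. A gene "rose" or "fell" below only where the authors' deposited q was under 0.05. Log2 folds are those of FPKM plus 0.1, treated over the control of the same table unless the other control is named. In such bulk RNA fewer cells of a type and less RNA per cell cannot be told apart.

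Cytokine receptors without kinase activity of their own signal through JAK kinases, which phosphorylate STAT proteins. Phosphorylated STAT dimers enter the nucleus and bind the sequence TTCNNNGAA. Among the genes they switch on are inhibitors of the same pathway, so the level of CISH and SOCS transcripts is widely read as a trace of recent cytokine signalling. In blood cells STAT5 acts downstream of the receptors for IL-3, GM-CSF and erythropoietin, and PIM kinases and oncostatin M are among its known target genes. RNA levels say nothing of phosphorylation, which was not measured here.

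Marker genes bear on how the columns compare. Of the markers of immature myeloid cells, Kit (75.0 to 95.6 FPKM), Gata2 (51.3 to 113) and Runx1 (38.0 to 92.6) were present in all 4 columns, while Elane was at 0 in each, Mpo stayed at or under 0.0662 and Ptprc, which encodes CD45, at or under 0.417. Of that list's tested genes, none of 8 rose and 2 fell with CBD, and 3 of 7 rose and 2 fell with 4-OHT. Among 21 neuron and glia markers, 18 rose with CBD and none fell. In the control of the CBD table they summed to 80.1 FPKM and with CBD to 554. In the control of the 4-OHT table they summed to 55.0 and with 4-OHT to 54.5, where 1 of 6 tested markers rose and 2 fell. Most of the control sums came from Mbp (38.6 and 32.0 FPKM), Tubb3 (20.5 and 9.33) and Nrgn (17.2 and 9.82). None of the 21 was at 0 with CBD, but 2 (Rbfox3 and Mog) were in its control, 9 in the other control and 8 with 4-OHT. Mast cell and basophil markers summed to 342 FPKM in the CBD table's control and 1507 with CBD (4 of 10 rose, none fell), and to 438 and 246 in the 4-OHT table (1 of 10 rose, 7 fell). With CBD, 3 of 9 tested monocyte and macrophage markers rose, 5 of 8 stromal and endothelial, 2 of 3 lymphoid, 2 of 7 erythroid (2 fell) and all 3 tested Y-linked genes. With 4-OHT the counts were 1 of 3, 1 of 3, 1 of 2 and 1 of 7 (2 fell), and no Y-linked gene was tested. The part of any of these in the results on the 10 genes was not tested.

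**Figure D1:**
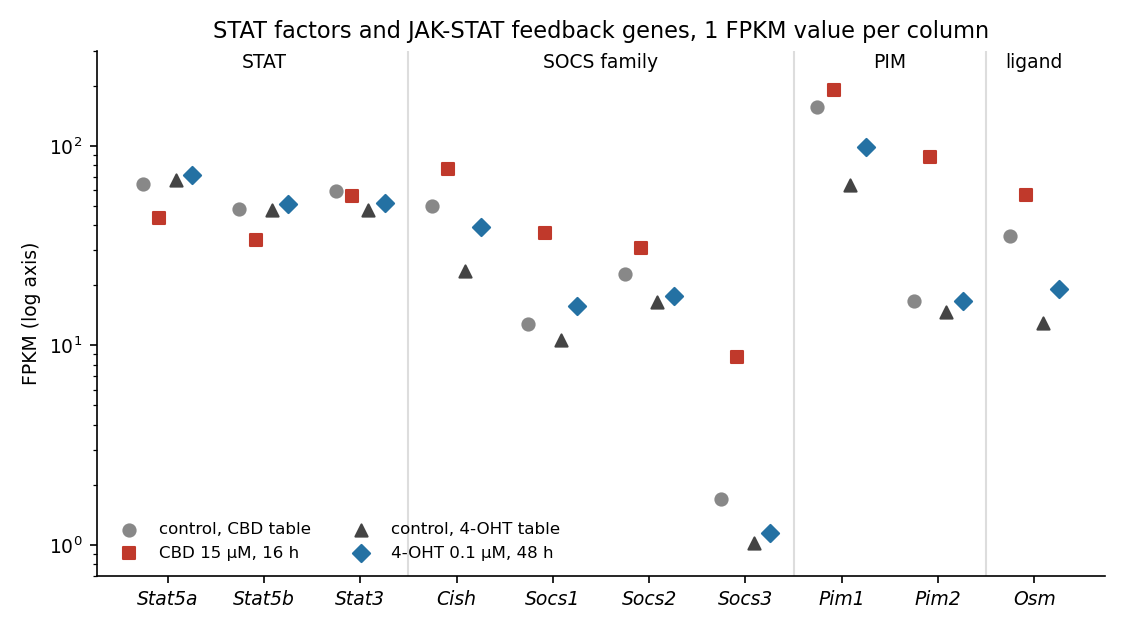
FPKM of the 10 genes (log axis) in the 4 columns of the deposited tables, 1 point per column and no error bars because each column is a single value per group. With CBD the SOCS family, PIM and Osm points lie above the other 3 columns, and the Stat5a and Stat5b points lie below them.

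The CBD comparison asks what the compound had changed by 16 h. All 4 SOCS family genes, Pim2 and Osm rose, while Stat5a fell. Of 9 genes tested, 6 rose and 1 fell. Among all 13751 tested genes 18.4% rose and 7.74% fell. Each of the 10 genes reached 1 FPKM in each control, and the closer background is the 9489 tested genes that did so too, of which 10.4% rose and 11.1% fell. The median log2 fold of the 9 was 0.61, and that of the 9489 was 0.04. Every riser lay above the other table's control as well (with the log2 fold over it at 1.69 for Cish, 2.12 for Osm and 2.97 for Socs3), and Stat5a below it, as did 98.5% of all genes that rose and 93.3% of all that fell. Called or not, 7 of the 10 genes had a CBD value above both control columns. So did 39.8% of the 9716 genes that reached 1 FPKM in each control.

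Socs3, whose protein binds the gp130 receptor chain and its JAK kinase, had the lowest level of the 10 genes in each column. It stood at 1.70 FPKM in the control and 8.71 with CBD. The 4-OHT table lists 1.02 FPKM for the control and 1.15 for 4-OHT. The CBD value is the high one and the other 3 run from 1.02 to 1.70 FPKM. Its log2 fold with CBD was 2.29, and the authors' deposited table gives q = 1.25e-05. In the RefSeq table of promoters (GRCm38.p6, a later build than the mm9 of the FPKM tables) 8 of the 10 genes matched, with 11 windows of 250 bases before to 50 after a start site. Osm and Socs2 had no entry. TTCNNNGAA, which reads alike on both strands, occurs in 2 of the 11 windows, those of Socs3 and Cish, and in 8.30% of all 32851 windows. These matches are letters in a window and not measured sites. The Socs3 match begins 154 bases before the start site and is in capitals in the 250 bases upstream, shown because Socs3 rose about as much as any of the 10 genes with CBD (chr11:117969367-117969616, minus strand, 5′ to 3′).
Socs3: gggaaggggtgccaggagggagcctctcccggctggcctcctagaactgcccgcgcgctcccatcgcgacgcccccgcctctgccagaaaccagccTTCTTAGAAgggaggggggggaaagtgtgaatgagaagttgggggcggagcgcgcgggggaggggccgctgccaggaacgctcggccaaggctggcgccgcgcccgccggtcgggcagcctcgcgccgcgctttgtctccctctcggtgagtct

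Socs1, which binds JAK kinases directly and blocks their activity, went from 12.8 FPKM in the control to 36.6 with CBD. Its other values were 10.6 FPKM in the 4-OHT table's control and 15.7 with 4-OHT. The CBD column is thus the high one for this gene too. The log2 fold with CBD was 1.50 (q = 0.000261 in the authors' deposited table).

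Cish encodes CIS, which docks on phosphorylated receptors and is induced by STAT5. Its 4 values were 50.1 FPKM in the CBD table's control, 76.7 with CBD, 23.6 in the 4-OHT table's control and 39.4 with 4-OHT. Each treated value exceeds its own control, but the ratio of the control columns exceeds that of either pair. With CBD the log2 fold was 0.61, and q = 0.0487 in the authors' deposited table, just under the threshold. The first 50 bases after the annotated Cish start site hold TTCNNNGAA in a pair, beginning at bases 1 and 12. At least 2 such matches occur in 0.457% of all windows. The 30 bases around the pair are shown because Cish rose in both comparisons (chr9:107296654-107296683, plus strand, 5′ to 3′, GRCm38.p6, matches in capitals).
Cish: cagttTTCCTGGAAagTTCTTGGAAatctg

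Socs2, a feedback inhibitor best known from the growth hormone receptor, changed least of the 4. It went from 22.8 to 30.9 FPKM with CBD, a log2 fold of 0.44 (q = 0.0306 in the authors' deposited table), and its 4-OHT table values were 16.5 and 17.6 FPKM. Here too the CBD value is the highest of the columns.

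The PIM genes encode kinases that are active without further modification and promote survival and growth. Pim2 went from 16.7 to 87.8 FPKM with CBD. The log2 fold was 2.39, next to 2.29 for Socs3, and over the other control the order turned, with 2.56 for Pim2 and 2.97 for Socs3. For Pim2 the authors' deposited table lists its q as 0. The 4-OHT table has 14.8 FPKM for the control and 16.7 for 4-OHT, so 3 of its 4 values lie within a narrow band and the CBD value lies well above. Pim1 was the most abundant of the 10 genes in every column but the 4-OHT table's control, where Stat5a exceeded it. Pim1 stood at 156 FPKM in the control and 191 with CBD. Its log2 fold of 0.29 missed the threshold (q = 0.423 in the authors' deposited table), and over the other control it was 1.58. Its control in the 4-OHT table was 63.7 FPKM and its 4-OHT value 98.8, both below the values of the CBD table. Within a column, where library scaling cancels, Pim1 over Pim2 was 9.37 in the CBD table's control and 2.18 with CBD, and 4.31 and 5.93 in the 4-OHT table.

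Osm encodes oncostatin M, a cytokine of the IL-6 family that acts through receptors containing gp130. It went from 35.5 to 56.7 FPKM with CBD (log2 fold 0.68, q = 0.0380 in the authors' deposited table), and from 13.0 to 19.1 FPKM with 4-OHT. The lower value of the CBD table exceeds the higher one of the 4-OHT table. The receptor gene Osmr was listed at 0.133 FPKM with CBD and at 0 elsewhere. Il6st, the gene of gp130 itself, rose from 0.0311 to 1.64 FPKM with CBD and was at 0.140 and 0.171 in the 4-OHT table. It falls outside the rule for named genes and was chosen after its values were seen. Lifr, the LIF receptor chain that pairs with gp130, went from 5.35 FPKM in the control to 4.11 with CBD, without passing the test, and rose from 1.53 to 3.51 with 4-OHT.

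The STAT genes lie side by side on chromosome 11. In mm9 Stat5b spans 100642045 to 100711899, Stat5a 100720665 to 100746483 and Stat3 100748124 to 100800825, so all 3 lie within 158781 bp, with 1640 bp between Stat5a and Stat3. Stat5a was at 64.2 FPKM in the control and 43.7 with CBD. Its 4-OHT table values were 67.5 FPKM for the control and 71.8 for 4-OHT. Its log2 fold with CBD was −0.55 (q = 4.53e-09 in the authors' deposited table). Stat5b was lower than Stat5a in each column, with 48.4 FPKM in the control and 33.9 with CBD, and with 47.8 FPKM in the second control and 51.1 with 4-OHT. For either gene the CBD column is the lowest and the 4-OHT column the highest. The Stat5b log2 fold of −0.51 was close to that of Stat5a but missed the threshold (q = 0.112 in the authors' deposited table). With a trend of fold on transcript length removed, the log2 folds were −0.23 for Stat5b and −0.46 for Stat5a. Whether the STAT5 genes differ in their response was not tested. Stat5a over Stat5b within a column stayed between 1.29 and 1.41. The genes are near-identical in part, since 771 of 3853 stretches of 36 bases in the longest Stat5a coding transcript (20.01%) also occur in that of Stat5b, so the split of reads between them is uncertain. Stat3 had 59.3 FPKM in the control and 56.4 with CBD, a comparison that the authors marked as failed and did not test. Its values in the 4-OHT comparison were 47.5 and 51.8 FPKM.

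Ratios within a column set the feedback genes against Stat5a. Cish over Stat5a was 0.781 in the CBD table's control, 1.75 with CBD, 0.350 in the 4-OHT table's control and 0.549 with 4-OHT, so the control columns differ about as much as CBD and its control do. Socs1 over Stat5a was 0.200, 0.837, 0.157 and 0.219 in the same order. These ratios are single values and carry no test.

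The 4-OHT comparison asks what followed 48 h of Cre induction in cells with loxP-flanked Id1. Of the 10 genes 6 rose and none fell: Cish, Pim1, Socs1, Osm, Stat3 and Stat5a. Among all 11232 tested genes 27.2% rose and 16.9% fell, and 28.1% rose of the 9661 that reached 1 FPKM in each control. The median log2 fold was 0.17 for the 10 genes and 0.04 for the 9661. None of the 6 reached 2-fold, and the share of all genes that did was not worked out.

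Cish had the highest log2 fold of the 10 with 4-OHT, 0.73, followed by Pim1 at 0.63, and the authors' deposited table lists q as 0 for both. Socs1 rose with a log2 fold of 0.56 (q = 7.07e-07 in the authors' deposited table) and Osm with 0.55 (q = 2.45e-10 in the same deposited table). The STAT genes moved little: the log2 folds were 0.13 for Stat3 (q = 0.00362 in the authors' deposited table) and 0.09 for Stat5a (q = 0.00640 there). Stat5b, with a log2 fold of 0.10, did not pass (q = 0.167 in the authors' deposited table). Nor did Pim2 (0.17, q = 0.0563), Socs3 (0.16, q = 0.557) and Socs2 (0.09, q = 0.261), the q values again being those of the authors' deposited table. Whether the response to 4-OHT differs from that to CBD was not tested.

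**Figure D2:**
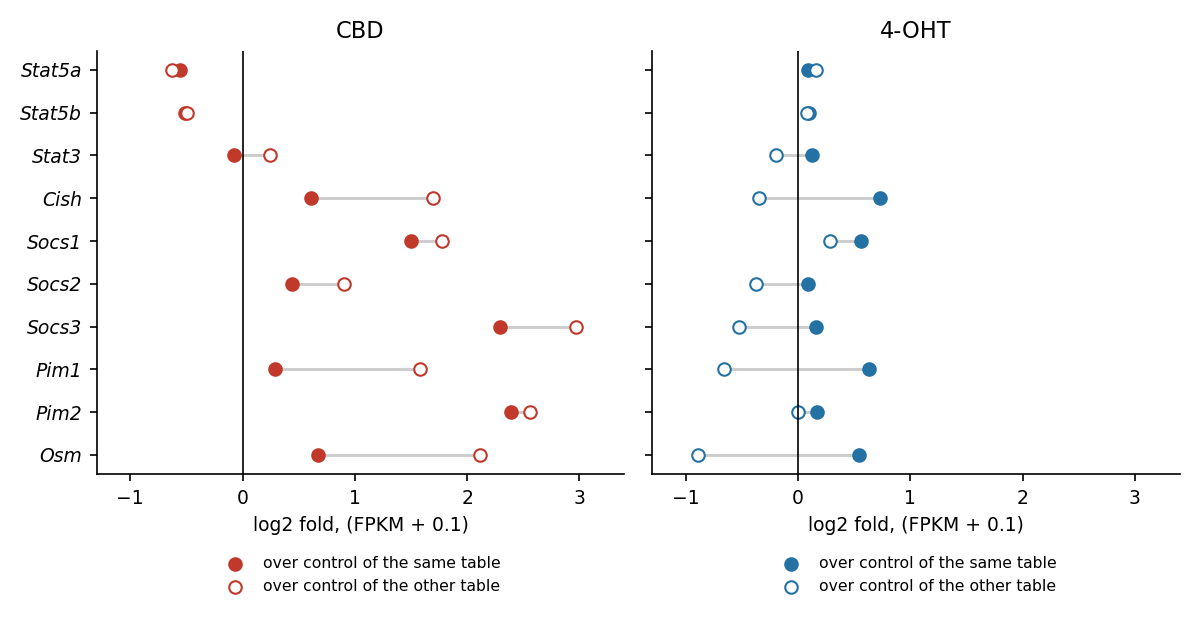
Log2 folds of FPKM plus 0.1 for each gene with CBD (left) and 4-OHT (right), filled over the control column of the same table and open over that of the other table, joined by a line and with no error bars. With 4-OHT the line crosses 0 for Stat3, Cish, Socs2, Socs3, Pim1, Pim2 and Osm, and with CBD for Stat3.

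Set against the control column of the CBD table, the 4-OHT values read differently. Of the 6 genes that rose, Socs1 and Stat5a lie above that column too, and Cish, Pim1, Osm and Stat3 lie below it. Of all genes that rose with 4-OHT, 51.2% lie above it. The log2 folds against it were −0.35 for Cish, −0.66 for Pim1 and −0.89 for Osm, none of them tested. In all, 7 of the 10 genes had a 4-OHT value between the control columns, as did 53.4% of the 9716 genes that reached 1 FPKM in each control.

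Of the 10 genes, Osm, Pim1 and Cish differed most between the control columns. Osm was 2.72-fold higher in the CBD table's control than in the 4-OHT table's control, Pim1 2.46-fold and Cish 2.12-fold. These are 3 of the 10 genes, and 5.94% of the 9716 genes were at least 2-fold higher in that control. Socs3 was 1.66-fold and Socs2 1.38-fold higher. The STAT5 genes differed little, with ratios of 0.951 for Stat5a and 1.01 for Stat5b, and Pim2 had a ratio of 1.13. In all, 9 of the 10 genes were higher in the CBD table's control, as were 48.8% of the 9716. No test between the tables can be made.

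**Figure D3:**
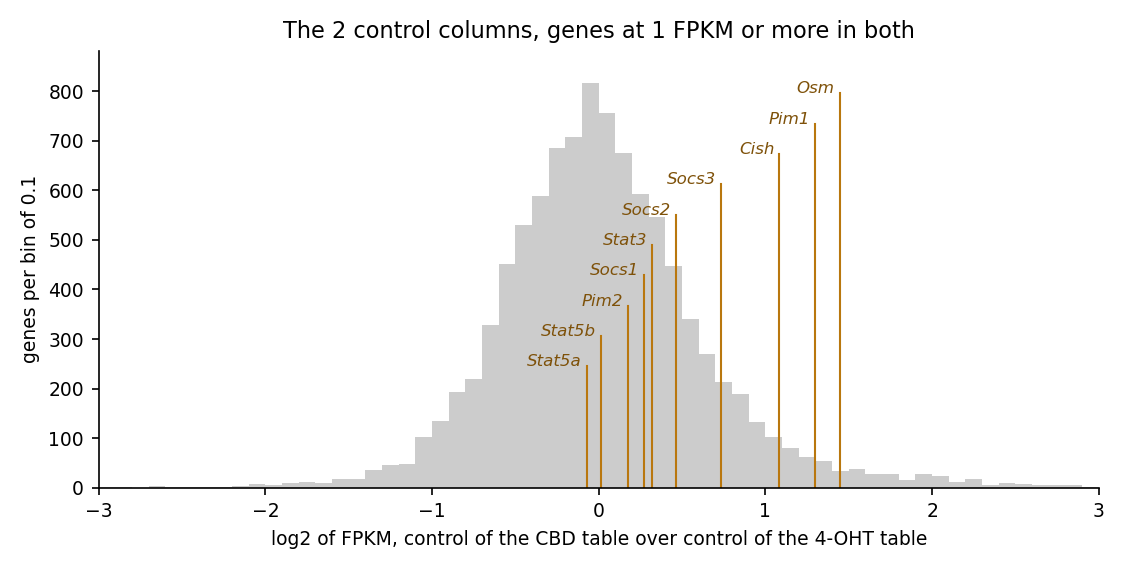
Histogram of the log2 ratio of the control columns, CBD table over 4-OHT table, for the 9716 genes that reached 1 FPKM in each control, with the ratio of each of the 10 genes as a vertical line whose height has no meaning. Stat5a and Stat5b lie near the middle, and Cish, Pim1 and Osm lie beyond a ratio of 2.

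The other genes of the pathway were taken from 9 lists holding 110 genes, all found in the tables. With CBD, 83 were tested, of which 20 rose and 8 fell, with a median log2 fold of 0.23 against 0.29 for all tested genes, of which 18.4% rose and 7.74% fell. With 4-OHT, 75 were tested, of which 35 rose and 9 fell, Id1 among the 9 as the gene that the 4-OHT design targets. The median was 0.19 against 0.05 for all tested genes, of which 27.2% rose and 16.9% fell. The counts per list below are small and are to be read against these shares. All 20 that rose with CBD lie above the other control too, as did 98.5% of all genes that rose. Of the 8 that fell, 6 lie below it, as did 93.3% of all that fell. With 4-OHT 8 of the 35 that rose keep their side, against 51.2% of all genes that rose. Of the 9 that fell 4 keep theirs, and the share over all genes that fell was not worked out.

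Of 4 JAK genes none rose with CBD and Jak2, the kinase of the erythropoietin and IL-3 receptors, fell from 38.5 to 26.8 FPKM. With 4-OHT 3 rose and Jak1 fell from 61.1 to 55.0 FPKM: Jak2 went from 27.6 to 34.6 FPKM, Jak3 from 2.14 to 3.87 and Tyk2 from 6.12 to 8.99. None of the 4 kept its side of the other control. Of the further STAT genes, Stat2 (3.01 to 6.63 FPKM) and Stat6 (24.2 to 32.5) rose with 4-OHT. Of the 5 remaining SOCS and PIM genes, Socs5 rose with CBD from 0.203 to 2.18 FPKM and none fell, and with 4-OHT Socs7 fell from 9.36 to 8.08 and none rose. The SOCS family genes called with CBD were thus Cish, Socs1, Socs2, Socs3 and Socs5, while Socs4, Socs6 and Socs7 did not pass the test. Socs5 was under 1 FPKM in either control column. Before CBD, Socs4 had 13.3 FPKM, Socs6 4.89 and Socs7 8.47. With CBD 18.4% of all tested genes rose, against 10.4% of those that reached 1 FPKM in each control. Rises were thus more frequent among genes of low level, to which Socs5 belongs. Whether these inhibitors differ in their response to CBD was not tested.

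Among 12 tested phosphatases and other negative regulators, 1 rose and 1 fell with CBD, and 3 rose and 1 fell with 4-OHT. Usp18, which removes ISG15 and dampens interferon signalling, went from 3.75 to 10.9 FPKM with CBD. Ptpn11, the phosphatase SHP2, fell in both, from 27.6 to 22.5 FPKM with CBD and from 47.2 to 37.2 with 4-OHT. Ptpn6, the phosphatase SHP1, rose with 4-OHT from 38.3 to 53.9 FPKM and Ptpn2 from 39.8 to 48.2. Over the other control the direction with 4-OHT turned for Ptpn11, Ptpn6 and Ptpn2.

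Receptor subunit genes rose in 7 of 23 cases and fell in 1 with CBD, and rose in 9 of 18 and fell in 1 with 4-OHT. Il4ra, the IL-4 receptor chain, rose with CBD from 11.0 to 26.3 FPKM, Crlf2, the TSLP receptor, from 16.9 to 45.1, and the IL-10 receptor gene Il10ra from 0.407 to 2.43. With 4-OHT Lifr rose from 1.53 to 3.51 FPKM, the interferon gamma receptor gene Ifngr1 from 1.97 to 3.65, and Csf2rb2, a beta chain of the IL-3 receptor, from 108 to 202. Csf2rb2 has a close paralogue, Csf2rb, so the split between them is uncertain. The 4-OHT values of Lifr, Ifngr1 and Csf2rb2 lie below the other control. Among ligand genes 6 were tested in each table. Il4, which encodes interleukin 4, rose in both, from 77.8 to 134 FPKM with CBD and from 14.6 to 27.8 with 4-OHT, and no ligand gene fell. The 4-OHT value of Il4 lies below the other control. The second ligand gene that rose with 4-OHT was Lif, which lies outside the rule for named genes.

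Of the other STAT5 target genes 2 of 13 rose with CBD and 3 fell, led by Serpina3g, a serine protease inhibitor gene, from 17.0 to 59.9 FPKM, by the transferrin receptor gene Tfrc, from 123 to 25.3, and by the erythroid repressor gene Gfi1b, from 89.5 to 53.0. With 4-OHT 5 of 11 rose and 5 fell, and the latter count includes Id1, the gene that the 4-OHT design targets. Cdkn1a, the CDK inhibitor p21, rose from 14.2 to 26.1 FPKM, the survival gene Bcl2 fell from 3.64 to 2.48, and Id1, the floxed gene, fell from 15.4 to 0.741. Over the other control the direction with 4-OHT turned for Cdkn1a and Bcl2. Of 6 tested STAT3 targets none rose and 2 fell with CBD: Birc5, the mitotic and survival protein survivin, went from 116 to 49.7 FPKM and Vegfa, an angiogenic growth factor, from 27.0 to 22.4. With 4-OHT 4 of 6 rose and none fell, with Vegfa going from 8.74 to 16.8 FPKM, Bcl3 from 1.98 to 3.74 and Icam1 from 12.9 to 16.1. Over the other control Vegfa turned in both comparisons and Bcl3 with 4-OHT.

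**Figure D4:**
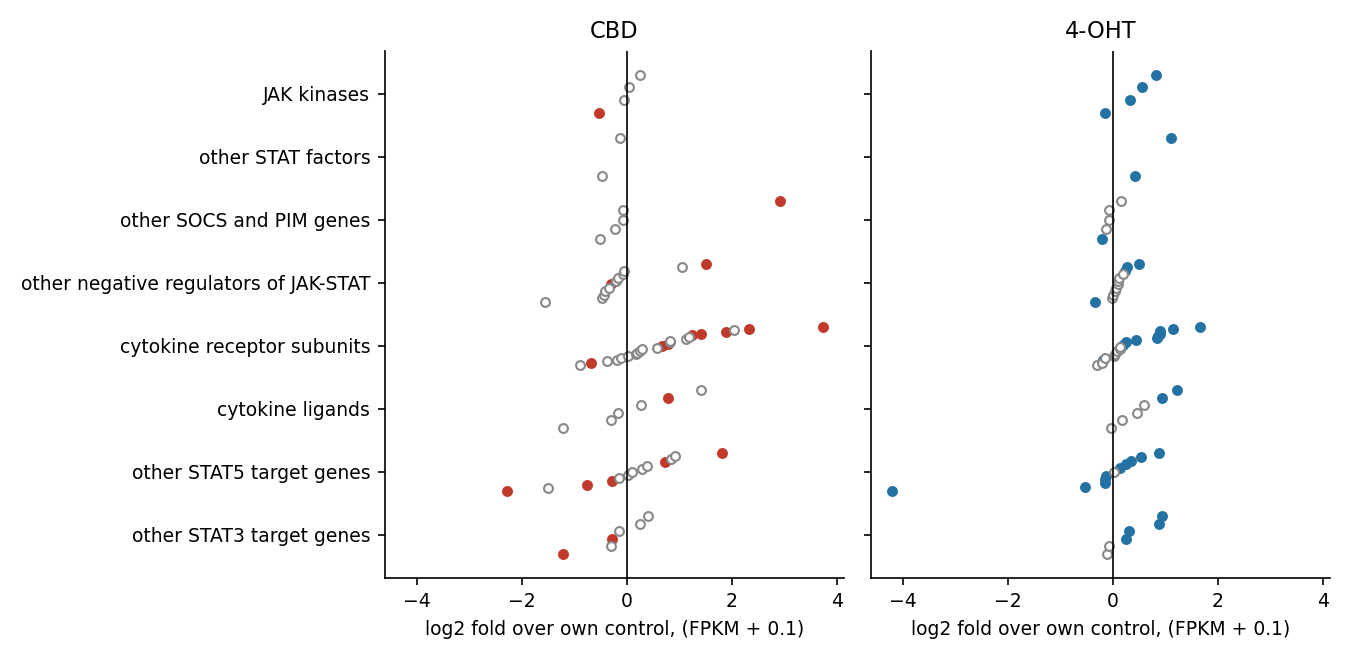
Log2 folds of FPKM plus 0.1 over the control of the same table for tested genes of 8 JAK-STAT lists with CBD (left) and 4-OHT (right), 1 point per gene, filled where the authors' deposited q was under 0.05 and spread vertically within a list by rank. Receptor genes lie mostly to the right with CBD, with a median of 0.67 against 0.29 for all tested genes. Some of these receptor genes, Il6st among them, were under 1 FPKM in the control. The lowest point with 4-OHT is Id1.

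Genes whose 4 values followed those of a member most closely were sought by the root mean square difference of log2 (FPKM plus 0.1), each centred on its own mean over the 4 columns. For Stat5a they were Zfml (0.00695), Hmgxb4 (0.00739) and Ctnna1 (0.0161). For Cish they were Cacnb3 (0.0344), Gmfg (0.0471) and Hdac11 (0.0618), and for Pim1 Plcg2 (0.0399), Fbxl20 (0.0458) and Rnf114 (0.0534). Gmfg, for example, went from 20.3 to 33.2 FPKM with CBD and from 9.36 to 15.8 with 4-OHT, where Cish went from 50.1 to 76.7 and from 23.6 to 39.4. Likeness over 4 values is a description of these columns only.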

How the data were processed

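RNA from 6 samples was sequenced after library preparation by standard Illumina methods, per the labels' protocols. Per the submitters' processing notes the authors used Bowtie 0.12.2, the mm9 build and Cuffdiff. The version and settings of Cuffdiff and the annotation it read are not known from the sources used here. The authors deposited 2 tables of FPKM values, 1 value per group, with the p-value and q-value of their test. Their deposited log2 fold was not used. The q threshold of 0.05, the pseudocount of 0.1 FPKM and the 110-gene lists, like the 10 genes, were chosen with earlier results of these data known. Genes with status OK count as tested, and q was taken as deposited, over all of them. No test was added, since each group has a single value per table.

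Depth per library is unknown: at under 0.05 FPKM in both control columns, the most frequent ratio between them covered 31 of 1327 genes, so whole reads could not be recovered. Start positions had 1 added to the deposited values. Named pathway genes are up to 3 per list and comparison, with q under 0.05, a mean of at least 1 FPKM and the largest folds. A gene and a list that enter the pathway totals are not reported here by name. Older symbols were matched through RefSeq synonyms. To remove a length trend, 5515 genes that reached 10 FPKM in each control were put into 20 bins by their longest GENCODE vM21 transcript (89.3% of genes matched by symbol), and the bins' median folds, interpolated on log length, were taken off. The trend and the Benjamini-Hochberg step were tested on simulated data. Scripts used Python 3.11.15, pandas 2.3.3 and numpy 2.4.6.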

Additional observations from a re-analysis of the deposited data

How the results depend on the processing

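No paired analysis was possible because the tables give 1 value per group, and for the same reason leaving out each replicate was not run. With q under 0.01, 4 of the 7 calls with CBD were left (Pim2, Socs1, Socs3 and Stat5a), so Cish, Socs2 and Osm rest on q values between 0.01 and 0.05. All 6 calls with 4-OHT were left. Over all tested genes, 2562 of 3598 calls were left with CBD and 3739 of 4951 with 4-OHT. Asking for at least 2-fold left 3 calls with CBD and 0 with 4-OHT, and the share over all genes was not worked out. Keeping calls on the same side of the other control column left all 7 with CBD and 2 of 6 with 4-OHT. In an alternative chosen after seeing the data, it left 12 of the 44 pathway genes called with 4-OHT. The share over all genes called with 4-OHT, higher and lower together, was not worked out. Over all genes, keeping those that reached 1 FPKM in each control took the calls with CBD from 3598 to 2044 (991 higher and 1053 lower, against 2533 and 1065). Set over the control of the other table, log2 folds with 4-OHT changed sign for Stat3 (−0.19), Cish (−0.35), Socs2 (−0.37), Socs3 (−0.52), Pim1 (−0.66), Pim2 (−0.000946) and Osm (−0.89), and with CBD for Stat3 (0.25), which was not tested there. Before the log2 was taken, folds with CBD moved by over 1.5 times there for 4 genes. Their log2 folds went from 0.61 to 1.69 for Cish, 0.68 to 2.12 for Osm, 0.29 to 1.58 for Pim1 and 2.29 to 2.97 for Socs3. The fold of Socs2 moved by less than that (log2 0.44 to 0.90). Removing the length trend also changed the sign of Stat3 with CBD (0.30). It took Stat5b with CBD from −0.51 to −0.23 and Stat5a from −0.55 to −0.46. The cause was not tested. Pseudocounts of 0.01 and 1 and centring on the median of tested genes at 1 FPKM in either column of a table, which was 0.19 with CBD and 0.04 with 4-OHT, changed no sign among the 10 genes. The unknown depth limits the genes of low level most, here Socs3.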

Other observations

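The JAK-STAT genes outside the 10 also differed between the control columns. Of 63 list genes that reached 1 FPKM in each control, 21 were at least 2-fold higher in the CBD table's control and 0 were at least 2-fold lower. Of all 9716 genes at that level 5.94% were at least 2-fold higher and 3.36% at least 2-fold lower. Among the 63, Il4 had the widest gap, with 77.8 FPKM against 14.6, a ratio of 5.35. Jak3, the kinase of the common gamma chain receptors, was 4.41-fold higher, Il13 4.10-fold, the AP-1 gene Junb 4.09-fold and the immunoproteasome gene Psmb9 3.98-fold. The receptor genes Lifr, Ifngr1, Crlf2 and Il9r were 3.50, 3.41, 3.30 and 3.05-fold higher. Cdkn1a, Bcl3 and Vegfa were 3.54, 3.16 and 3.09-fold higher. These genes were picked by their ratio between the control columns, which has no replicate behind it and was not tested.

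The interleukin 9 receptor gene Il9r and the common gamma chain gene Il2rg, which pair in a receptor that signals through STAT5, went opposite ways with CBD. Il9r fell from 83.5 to 51.9 FPKM, where the authors' deposited table has q = 0.00152, and Il2rg rose from 79.2 to 136, where the authors' deposited table has q = 0.00796. The Il9r value with CBD lies above the other control, 27.4 FPKM. With 4-OHT both rose, Il9r from 27.4 to 31.3 FPKM and Il2rg from 59.3 to 70.1, but these values lie below the other control (83.5 and 79.2 FPKM). Both were chosen after their values were seen.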
